A study of Homo sapiens with 4 samples.

Results

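Sialyl-Lewis and Sda antigens are built by a small set of glycosyltransferases, and the transcripts of 10 of these enzymes were followed in SW1990 cells treated with gomisin G or with vehicle. The 10 genes were chosen by name, as enzymes of Lewis-type (CA19-9) or Sda antigen synthesis, from a list drawn up with their gomisin G and vehicle counts already known, so their differences between the groups are given as a description. They are 10 of the 58735 genes in the deposited table, and all 10 were found. SW1990 is an established human pancreatic adenocarcinoma line. Gomisin G, a lignan of Schisandra fruits, was given at 10 µM for 24 h (2 libraries), and the vehicle cultures were held as long without it (2 libraries). Both groups are the same line grown in DMEM, with no genetic change named, so every value describes 1 cell line at 1 dose and 1 time. Neither the vehicle nor the source of the replicates is named in the labels, so p-values measure only the spread between these libraries, which may be technical. The study named the Hippo-YAP pathway as its subject, and the comparison here asks which of these enzyme transcripts differed between gomisin G and vehicle.

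Sialyl-Lewis a, the epitope read by the pancreatic cancer blood test CA19-9, is assembled in steps on a galactose and N-acetylglucosamine chain. A galactosyltransferase (B3GALT5 in digestive epithelium) makes the type 1 chain, a sialyltransferase such as ST3GAL3 caps it with sialic acid, and FUT3 adds the Lewis fucose. FUT6 adds the corresponding fucose to type 2 chains, which gives sialyl-Lewis x, and FUT2 puts fucose on the terminal galactose instead, which leads to H and Lewis b structures. B4GALNT2 adds N-acetylgalactosamine to a sialylated galactose and so makes the Sda antigen of normal colon, B4GALNT3 makes the related LacdiNAc unit, and ST6GAL1 adds sialic acid in another linkage. Only transcripts were measured here, not enzymes or glycans.

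Total counts were 15034663 and 15245770 in the gomisin G libraries and 14580848 and 14901526 in the vehicle libraries. Values are CPM, the counts of a gene per 1000000 counts of the tested genes in its library, scaled with TMM factors between libraries, and 3 counts, the limit that a count of 0 allows, equal 0.189 to 0.207 CPM. This limit and the exact intervals below cover counting error only. Of all genes 15721 passed the expression filter and were tested with edgeR's quasi-likelihood test, and a gene is called when its Benjamini-Hochberg adjusted p over all of them is below 0.05. The pancreatic epithelial markers KRT8, KRT18, KRT19, EPCAM, CDH1, SOX9 and TSPAN8 were each at 145.2 CPM or more in all 4 libraries, whereas the duct keratin KRT7 was at 0.875 to 2.07 CPM. Leukocyte markers summed to 0 CPM in both gomisin G libraries and to 0.345 and 0.135 CPM in the vehicle libraries. The 8 fibroblast markers summed to 8.57 and 12.1 CPM with gomisin G and to 4.83 and 4.91 CPM with vehicle, nearly all of it COL1A1 and PDGFRB, while COL1A2 and LUM were at 0 counts in every library. The part of these markers in the results was not tested.

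The upstream sequences of B4GALNT2 and FUT2, the 2 genes of the set that were called, are shown because these transcripts moved in opposite directions. Each line gives the 250 bases before the RefSeq start site (GRCh38.p14), read 5′ to 3′ on the gene's strand. The stretches are chr17:49132210-49132459 on the plus strand for B4GALNT2 and chr19:48695721-48695970 on the plus strand for FUT2. Capitals mark the GC box GGGCGG, the letters bound by SP1-type factors.
B4GALNT2: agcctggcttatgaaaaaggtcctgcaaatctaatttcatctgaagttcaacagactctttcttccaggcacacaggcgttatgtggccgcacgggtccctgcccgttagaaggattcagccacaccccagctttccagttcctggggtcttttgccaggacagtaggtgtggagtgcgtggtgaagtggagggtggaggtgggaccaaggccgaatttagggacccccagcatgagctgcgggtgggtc
FUT2: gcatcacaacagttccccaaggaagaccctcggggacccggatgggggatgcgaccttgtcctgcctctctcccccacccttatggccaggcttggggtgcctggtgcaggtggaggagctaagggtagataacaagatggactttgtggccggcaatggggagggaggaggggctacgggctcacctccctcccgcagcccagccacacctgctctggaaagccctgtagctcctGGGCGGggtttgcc
FUT2 holds the box 1 time, and B4GALNT2 does not hold it. With both strands searched, 42.6% of the 35116 RefSeq upstream stretches of the same length hold it at least 1 time. Neither stretch holds the letters GGAATG (TEAD factors, found in 11.9% of all stretches), TTTAT (CDX factors, 32.7%), GTTAAT (HNF1 factors, 6.23%) or TGANTCA (AP-1, 6.57%), again on both strands. Of the 10 genes 9 had a stretch in the table, and B4GALNT3 had none.

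The Sda synthase transcript B4GALNT2 (ENSG00000167080, chromosome 17, 49132460 to 49176840, plus strand, GRCh38) was the lowest-p member and fell with gomisin G. It had 101 and 121 counts with gomisin G, against 379 and 451 counts with vehicle. Scaled, these were 6.98 and 7.64 CPM in gomisin G cells, against 26.1 and 30.3 CPM in vehicle cells. The groups lay far apart, and each pair was close. The means were 7.31 ± 0.468 CPM with gomisin G and 28.2 ± 2.97 CPM with vehicle (SD, n = 2 libraries each), a log2 change of -1.95 (SE 0.20), or 3.86-fold lower. By size this change ranked 121 among the 15721 tested genes. No other annotated exon overlaps those of B4GALNT2.

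Its relative B4GALNT3 (chromosome 12, 460364 to 563509), the LacdiNAc synthase, did not follow it. B4GALNT3 had 13.4 and 16.2 CPM with gomisin G, against 15.5 and 14.7 CPM with vehicle, so the groups overlapped. Its log2 change was -0.03 (SE 0.20), and it was not called. In each library the counts of B4GALNT3 per count of B4GALNT2, a ratio that needs no scaling between libraries, were 1.92 and 2.12 with gomisin G, against 0.594 and 0.486 with vehicle.

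FUT2, the secretor fucosyltransferase (ENSG00000176920, chromosome 19, 48695971 to 48705950, plus strand), rose with gomisin G. It had 462 and 541 counts with gomisin G, against 212 and 253 counts with vehicle, or 31.9 and 34.1 CPM with gomisin G and 14.6 and 17.0 CPM with vehicle. Both gomisin G libraries lay above both vehicle libraries. The means were 33.0 ± 1.58 CPM with gomisin G and 15.8 ± 1.70 CPM with vehicle (SD, n = 2 libraries each), a log2 change of 1.06 (SE 0.18), or 2.09-fold higher. The call was lost without vehicle replicate 1 (log2 change 0.95) and without vehicle replicate 2 (log2 change 1.17), fits in which the spread rests on the gomisin G pair. Set against B4GALNT2, FUT2 had 4.57 and 4.47 counts per B4GALNT2 count with gomisin G, against 0.559 and 0.561 with vehicle. The order of the 2 transcripts by counts was thus opposite in the 2 groups, but counts also depend on gene length. Per kilobase of merged exons FUT2 was the higher in both groups. It averaged 9.77 against 0.815 CPM per kilobase with gomisin G and 4.68 against 3.15 with vehicle.

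FUT3, the Lewis fucosyltransferase of sialyl-Lewis a (ENSG00000171124, chromosome 19, 5842888 to 5851474, minus strand), had the highest level of the 10 by counts and per length in all 4 libraries. It had 871 and 828 counts with gomisin G, against 628 and 557 counts with vehicle, or 60.2 and 52.3 CPM with gomisin G and 43.3 and 37.5 CPM with vehicle. Both gomisin G libraries were above both vehicle libraries. The log2 change of 0.48 (SE 0.17) was not called. FUT3 was called without gomisin G replicate 1 (log2 change 0.37) and without gomisin G replicate 2 (log2 change 0.58). In both fits the spread rests on the vehicle pair. For FUT3 itself that pair was not closer relative to its level. The means were 56.2 ± 5.58 CPM with gomisin G and 40.4 ± 4.13 CPM with vehicle (SD, n = 2 libraries each). Why the call differed in these fits was not tested.

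FUT6 (chromosome 19, 5830610 to 5839731), the sialyl-Lewis x type enzyme beside FUT3, was scarce. It had 25 and 11 counts with gomisin G, against 6 and 15 counts with vehicle, and the groups overlapped. The log2 change of 0.73 had an SE of 0.64 and was not called, and it was -0.04 without gomisin G replicate 1 and 1.51 without vehicle replicate 2. FUT3, FUT6 and the neighbouring FUT5, which had 0 and 1 counts with gomisin G and 0 and 0 counts with vehicle, are close copies. The coding sequence of FUT3 is identical to that of FUT5 at 93.9% of aligned bases and to that of FUT6 at 89.1%. The first lines below show the 60-base coding window in which the 3 genes differ most, at 20 positions, with the differing positions in capitals (FUT3 coding bases 321 to 380, GENCODE release 29). The last line shows the longest coding stretch that all 3 share, 229 bases of FUT3 from coding base 733 to 961, in which reads cannot be told apart.
FUT3 window: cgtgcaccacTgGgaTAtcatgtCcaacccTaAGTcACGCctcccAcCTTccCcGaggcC
FUT5 window: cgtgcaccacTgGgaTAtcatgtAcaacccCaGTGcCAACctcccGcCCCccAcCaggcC
FUT6 window: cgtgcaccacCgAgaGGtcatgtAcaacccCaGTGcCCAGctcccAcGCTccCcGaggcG
FUT3, FUT5 and FUT6 shared stretch: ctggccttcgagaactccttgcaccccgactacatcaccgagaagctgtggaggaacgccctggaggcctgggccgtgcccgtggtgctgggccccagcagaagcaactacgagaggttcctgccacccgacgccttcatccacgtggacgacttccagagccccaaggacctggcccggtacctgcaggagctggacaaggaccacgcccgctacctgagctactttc
Of the 3347 different 100-base words in the FUT3 transcripts 6.27% also occur in FUT6 transcripts and 6.30% in FUT5 transcripts, and of the FUT6 words 4.20% occur in FUT3 transcripts. The rule for reads that fit more than 1 gene is not known here, so the counts of these genes are uncertain. FUT3 had far more counts than FUT6, and how many of the few FUT6 counts came from reads of such shared stretches is not known. FUT2 shares 0 of its 3418 words with its own neighbour FUT1. An antisense gene, AC024592.2, overlaps 126 exonic bases of FUT3 and had 10 and 16 counts with gomisin G and 10 and 8 counts with vehicle.

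**Figure D1:**
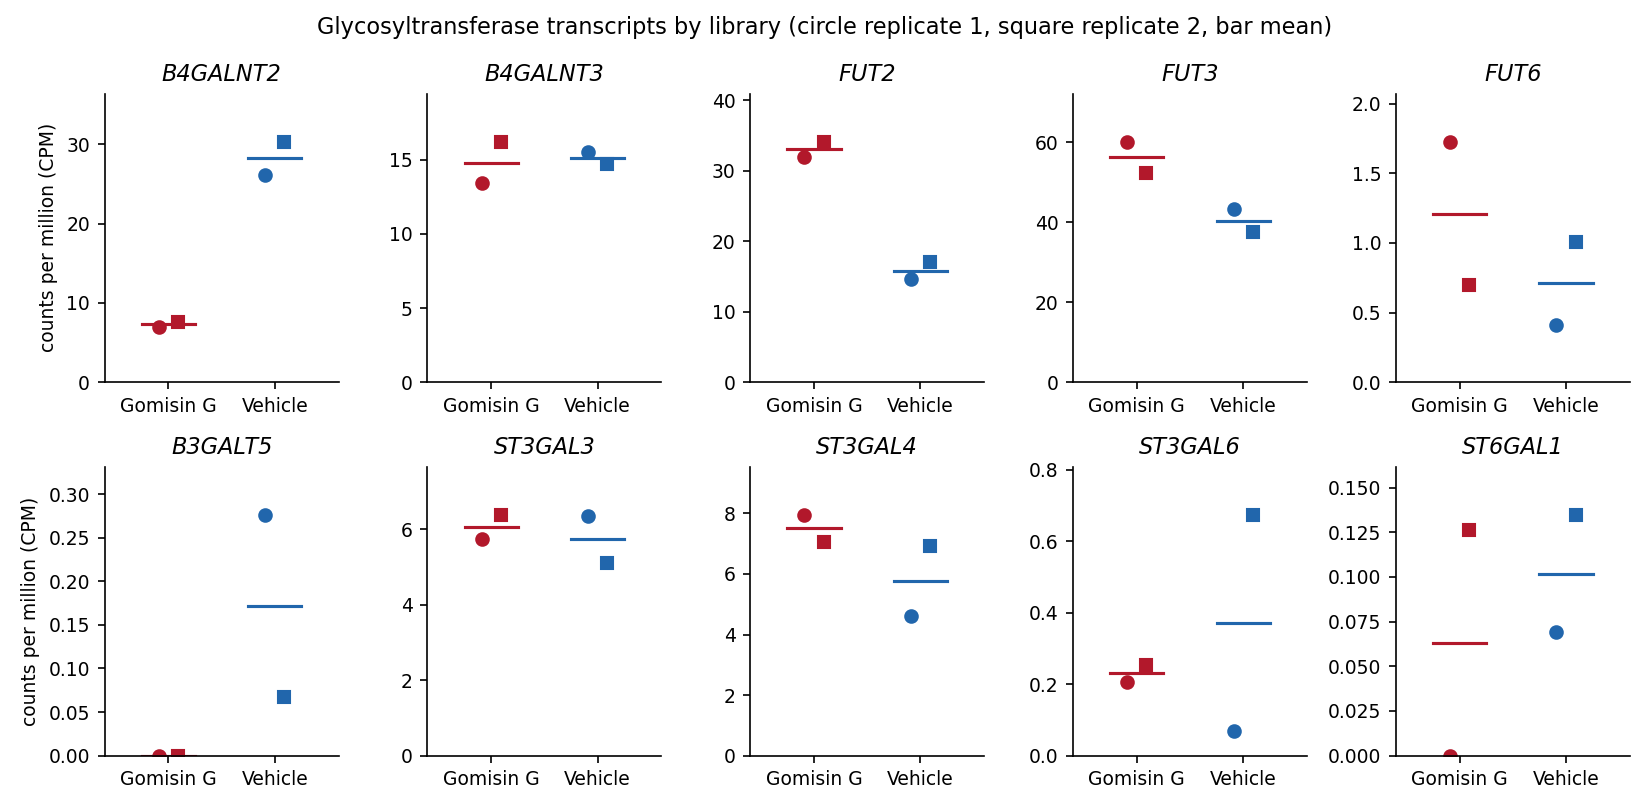
Scaled transcript levels (CPM, linear axes from 0) of the 10 glycosyltransferase genes in gomisin G and vehicle libraries, with circles for replicate 1, squares for replicate 2 and bars for the mean of 2 libraries. B4GALNT2 lies at 6.98 and 7.64 CPM with gomisin G and at 26.1 and 30.3 CPM with vehicle, FUT2 at 31.9 and 34.1 CPM with gomisin G and at 14.6 and 17.0 CPM with vehicle, and the panels of B3GALT5, ST3GAL6 and ST6GAL1 span under 1 CPM.

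B3GALT5 (chromosome 21, 39556442 to 39673137), the type 1 chain galactosyltransferase, was close to the limit of detection. It had 0 and 0 counts with gomisin G, against 4 and 1 counts with vehicle, and did not pass the expression filter. The summed ratio of gomisin G to vehicle was 0, with an exact 95% interval of 0 to 1.06, so a difference was not detectable at this depth. B3GALT1 and B3GALT2, other galactosyltransferases that can make type 1 chains, had at most 3 counts in any library.

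Of the 4 sialyltransferases, ST3GAL3 and ST3GAL4 were expressed and neither was called. ST3GAL3 (chromosome 1, 43705824 to 43931165), which sialylates type 1 chains, had 5.73 and 6.38 CPM with gomisin G, against 6.35 and 5.11 CPM with vehicle (log2 change 0.08, SE 0.25). Its groups overlapped, and 1951 of its exonic bases are also annotated on the same strand to AL451062.3, a gene with 0 counts in every library. How reads in these shared bases were counted is not known, so the level of ST3GAL3 is uncertain. MIR6079 shares 62 bases on the same strand and had 0 counts in every library. AL451062.1 shares 113 on the opposite strand and had 3 and 2 counts with gomisin G and 2 and 1 with vehicle. ST3GAL4 (chromosome 11, 126355640 to 126440344), which acts mainly on type 2 chains, had 7.94 and 7.07 CPM with gomisin G, against 4.62 and 6.93 CPM with vehicle (log2 change 0.37, SE 0.27). Its lowest gomisin G library lay just above its highest vehicle library. The change was 0.11 without vehicle replicate 1 and 0.70 without vehicle replicate 2.

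ST3GAL6 and ST6GAL1 did not pass the filter. ST3GAL6 (chromosome 3, 98732236 to 98821201), a type 2 chain enzyme, had 3 and 4 counts with gomisin G, against 1 and 10 counts with vehicle, a ratio of 0.616 with an exact 95% interval of 0.203 to 1.74. Its exons overlap 235 bases of DCBLD2 on the opposite strand, which had 619 and 904 counts with gomisin G and 1047 and 1131 counts with vehicle. They also overlap 354 bases of PDLIM1P4 on the same strand and 107 of ST3GAL6-AS1 on the opposite strand. Both of these had 0 counts in every library. The few ST3GAL6 reads therefore cannot be assigned with certainty. ST6GAL1 (chromosome 3, 186930485 to 187078553) had 0 and 2 counts with gomisin G, against 1 and 2 counts with vehicle, a ratio of 0.646 with an interval of 0.0539 to 5.64.

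Over the set, 7 of the 10 genes were tested, 1 was called higher (FUT2) and 1 lower (B4GALNT2). Among all tested genes 0.922% were called higher and 0.903% lower. In 4 of the 7, B4GALNT2, FUT2, FUT3 and ST3GAL4, the 2 groups did not overlap, as in 54.2% of all tested genes. Since the genes were listed with these values known, nothing is read from these counts.

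**Figure D2:**
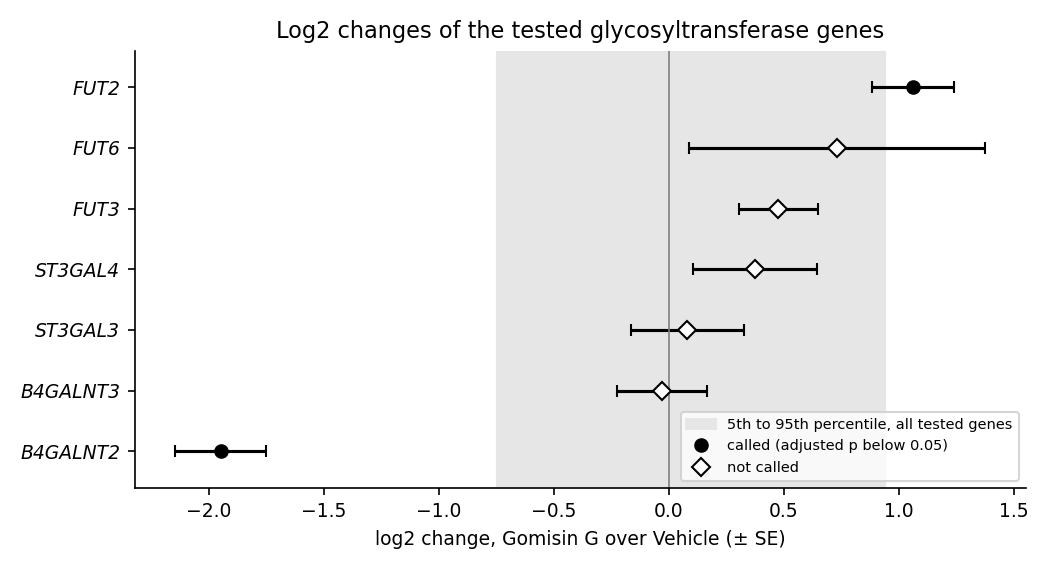
Log2 change (gomisin G over vehicle, ± SE) of the 7 tested genes, with filled circles for called genes, open diamonds for the others and a grey band from the 5th to the 95th percentile of all 15721 tested genes (-0.75 to 0.94). B4GALNT2 at -1.95 and FUT2 at 1.06 lie outside the band, and the other 5 lie inside it.

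Per length, the order of the transcripts was led by FUT3 and FUT2 in both groups. As CPM per kilobase of merged exons, FUT3 averaged 18.1 with gomisin G and 13.0 with vehicle, and FUT2 averaged 9.77 with gomisin G and 4.68 with vehicle. B4GALNT2 was in place 5 with gomisin G (0.815 CPM per kilobase) and in place 3 with vehicle (3.15 CPM per kilobase). B4GALNT3 was in place 3 with gomisin G (2.16) and in place 4 with vehicle (2.20), and ST3GAL4 in place 4 with gomisin G (1.68) and in place 5 with vehicle (1.29), all as CPM per kilobase. With gomisin G the libraries of each of the first 5 genes lay above those of the next, as they did with vehicle. ST3GAL3 and FUT6 overlapped each other with gomisin G, and the genes from FUT6 downwards overlapped their neighbours with vehicle. Merged exon length counts every annotated isoform, so it lowers the level of a gene with many of them, such as ST3GAL3 with 85 transcripts and 19475 bases.

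The make-up of the set differed accordingly. B4GALNT2 held 2.29% and 2.64% of the summed CPM per kilobase of the 10 genes with gomisin G, against 11.7% and 13.7% with vehicle. FUT2 held 27.7% and 31.3% with gomisin G, against 17.4% and 20.3% with vehicle. FUT3 held 56.9% and 52.1% with gomisin G, against 55.9% and 48.6% with vehicle, so its share overlapped between the groups. The sum itself was 34.0 and 32.3 CPM per kilobase with gomisin G, against 24.9 and 24.8 with vehicle.

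**Figure D3:**
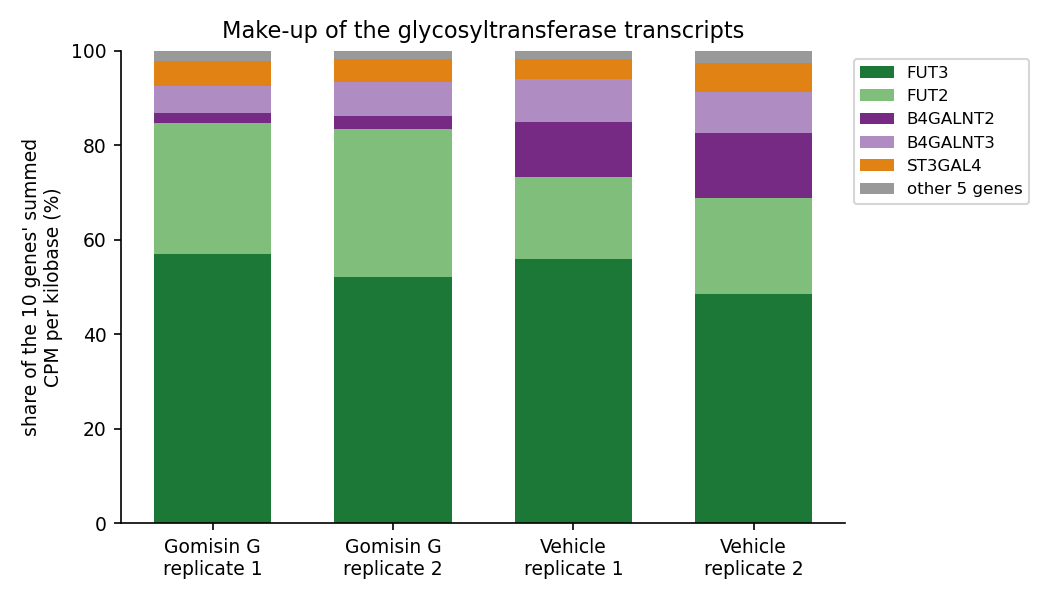
Share of each gene in the summed CPM per kilobase of the 10 genes (%), 1 bar per library, the gomisin G libraries left of the vehicle libraries. FUT3 is the tallest segment in every bar, and the B4GALNT2 segment is 2.29% and 2.64% with gomisin G and 11.7% and 13.7% with vehicle.

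The 3 tested protein-coding genes outside the set whose log2 CPM profile over the 4 libraries lay nearest to that of B4GALNT2, by Euclidean distance after centring each gene, were ENC1, CCDC80 and KIF26B (distances 0.15, 0.19 and 0.20). ENC1 had 61.1 and 73.5 CPM with gomisin G, against 255.4 and 267.5 CPM with vehicle. The nearest to FUT2 were ENTPD8, ETNK2 and KLHL24 (distances 0.08, 0.08 and 0.09). KLHL24 had 18.5 and 19.3 CPM with gomisin G, against 7.79 and 9.76 CPM with vehicle. With 4 libraries such likeness is a description of shape and size only.

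The wider pathway was described with 8 lists of 102 further genes, of which 75 were tested. By edgeR 2 of the 75 were called higher, CD44 and CDX1, and 0 were called lower, beside the 0.922% and 0.903% of all tested genes, and 14 higher and 3 lower had an unadjusted p below 0.05. These were 17 of the 75, and over all tested genes 20.6% had such a p in either direction. The split by direction over all tested genes was not counted, so nothing is read from the split of the 17. DESeq2 called 4 of the 75 higher and 1 lower, beside 451 higher and 432 lower among all tested genes. Limma voom called 0 of the 75, beside 120 higher and 129 lower among all tested genes. The median log2 change over the 75 was 0.07, and over all tested genes it was 0.0092.

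Among 10 other fucosyltransferase genes 7 were tested and 0 were called by edgeR, DESeq2 or limma voom, with a median log2 change of -0.13 and 1 unadjusted p below 0.05. FUT1, the H enzyme of type 2 chains and the neighbour of FUT2, had 26.7 and 29.4 CPM with gomisin G, against 22.1 and 20.7 CPM with vehicle (log2 change 0.39, SE 0.17, adjusted p = 0.247 by edgeR). The lowest p was that of POFUT1, which fucosylates Notch receptors (log2 change -0.53, adjusted p = 0.126 by edgeR), and FUT10 had -0.31 (adjusted p = 0.355 by edgeR). FUT4, another enzyme of Lewis x type structures, had 44.4 and 60.7 CPM with gomisin G, against 59.1 and 60.6 CPM with vehicle, and is named after its values were seen because it exceeded FUT6 in every library. Of 16 other sialyltransferase genes 6 were tested and 0 were called by edgeR, DESeq2 or limma voom, with a median of 0.18 and 1 unadjusted p below 0.05. ST6GALNAC2, which sialylates O-glycan cores, had a log2 change of 0.69, the ganglioside enzyme gene ST3GAL5 had -0.55, and ST3GAL2 had 0.29 (adjusted p = 0.215, 0.302 and 0.345 by edgeR).

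Of 23 chain-building transferase genes 17 were tested and edgeR called 0, with a median log2 change of 0.05 and 4 unadjusted p-values below 0.05, while DESeq2 called 2 and limma voom 0. GCNT1, which branches O-glycan cores, had 7.25 and 8.65 CPM with gomisin G, against 15.8 and 15.9 CPM with vehicle (log2 change -0.99, SE 0.20, adjusted p = 0.0549 by edgeR). B3GALT4, a ganglioside galactosyltransferase gene, had 5.66 and 7.39 CPM with gomisin G, against 2.55 and 2.69 CPM with vehicle (log2 change 1.32, SE 0.28, adjusted p = 0.0592 by edgeR). B4GALT6 had a log2 change of -0.48 (adjusted p = 0.181 by edgeR). In the competing blood-group and ganglioside list 5 of 7 genes were tested and 0 were called by edgeR, DESeq2 or limma voom, with a median of 0.04 and 1 unadjusted p below 0.05. ABO, whose enzyme extends H structures, had 23.1 and 29.4 CPM with gomisin G, against 18.1 and 19.8 CPM with vehicle (log2 change 0.47, adjusted p = 0.224 by edgeR), and B3GALNT1 and B4GALNT1 had -0.25 and 0.33.

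All 21 genes of nucleotide sugar supply were tested and edgeR called 0, with 4 unadjusted p-values below 0.05 and a median log2 change of 0.12, while DESeq2 called 1 and limma voom 0. GNE, the first enzyme of sialic acid synthesis, had 145.1 and 161.0 CPM with gomisin G, against 97.8 and 107.0 CPM with vehicle (log2 change 0.58, SE 0.16, adjusted p = 0.0978 by edgeR). For GDP-fucose, the synthase gene GFUS (TSTA3 in the files) had a log2 change of 0.53 and the Golgi transporter gene SLC35C1 one of 0.45 (adjusted p = 0.152 and 0.160 by edgeR). Of 6 sialidase and fucosidase genes 5 were tested and 0 were called by edgeR, DESeq2 or limma voom, with a median of 0.25 and 2 unadjusted p-values below 0.05. The sialidase gene NEU4 had 9.05 and 7.70 CPM with gomisin G, against 4.55 and 3.63 CPM with vehicle (log2 change 1.03, SE 0.25, adjusted p = 0.0800 by edgeR), NEU1 had a log2 change of 0.50 and FUCA1 one of 0.25.

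Among 10 genes of proteins that carry these antigens, 6 were tested, with a median log2 change of 0.55, and 1 was called higher. CD44, the hyaluronan receptor, had 110.7 and 122.6 CPM with gomisin G, against 65.2 and 68.4 CPM with vehicle (log2 change 0.80, SE 0.16, adjusted p = 0.0477 by edgeR). Both gomisin G libraries were higher, but the call was lost with RLE factors, with no expression filter, with limma voom and without either vehicle library, and over all alternatives the adjusted p ran from 1.33e-10 to 0.445. The mucin genes MUC1 and MUC5AC had log2 changes of 0.83 and 0.56 (adjusted p = 0.0862 and 0.169 by edgeR). Of 9 listed transcription factors 8 were tested, with a median of -0.01, and 1 was called higher. CDX1, an intestinal homeobox factor, had 43 and 50 counts with gomisin G, against 4 and 11 counts with vehicle, or 2.97 and 3.16 CPM with gomisin G and 0.276 and 0.740 CPM with vehicle (log2 change 2.57, SE 0.47, adjusted p = 0.0409 by edgeR). CDX1 was tested in 11 of the 12 alternatives, since it did not pass the filter of at least 50 counts in 2 samples. Its call was lost with limma voom (adjusted p = 0.0584 by limma voom) and without vehicle replicate 1 (log2 change 2.03). The related CDX2 had 365.6 and 359.9 CPM with gomisin G and 403.2 and 397.4 CPM with vehicle and was not called, and SP1 and HNF4A had log2 changes of -0.30 and 0.26.

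**Figure D4:**
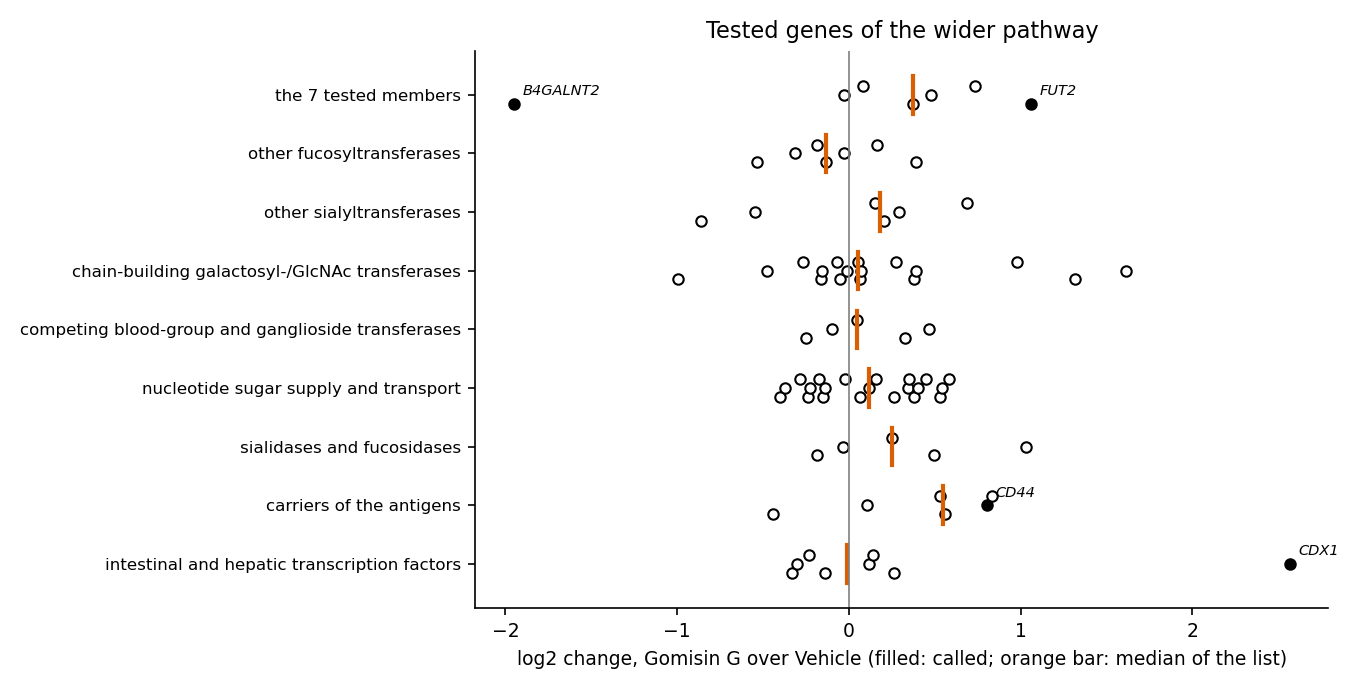
Log2 change (gomisin G over vehicle) of the 7 tested members and of the 75 tested genes in 8 wider lists, 1 point per gene, filled where called, with an orange bar at each list's median. B4GALNT2 lies at -1.95, CDX1 at 2.57 and CD44 at 0.80, and the medians of the 8 wider lists lie between -0.13 and 0.55.

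B4GALNT2 and FUT2 kept their direction under all 12 alternatives of processing and library choice. The alternatives reuse the same libraries, and in both genes the groups did not overlap. A reversal was therefore hardly possible, and the kept direction is no separate support. The log2 change of B4GALNT2 ran from -2.06 to -1.80 over the alternatives and was called in 12. That of FUT2 ran from 0.95 to 1.17 and was called in 10. FUT3 ran from 0.36 to 0.58 and was called in 3, the replicate block and the fits that left out either gomisin G library. Each of these 3 called far more of all tested genes than the fit reported here. B4GALNT3 ran from -0.17 to 0.10 and ST3GAL3 from -0.07 to 0.38, so their signs were not fixed.

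**Figure D5:**
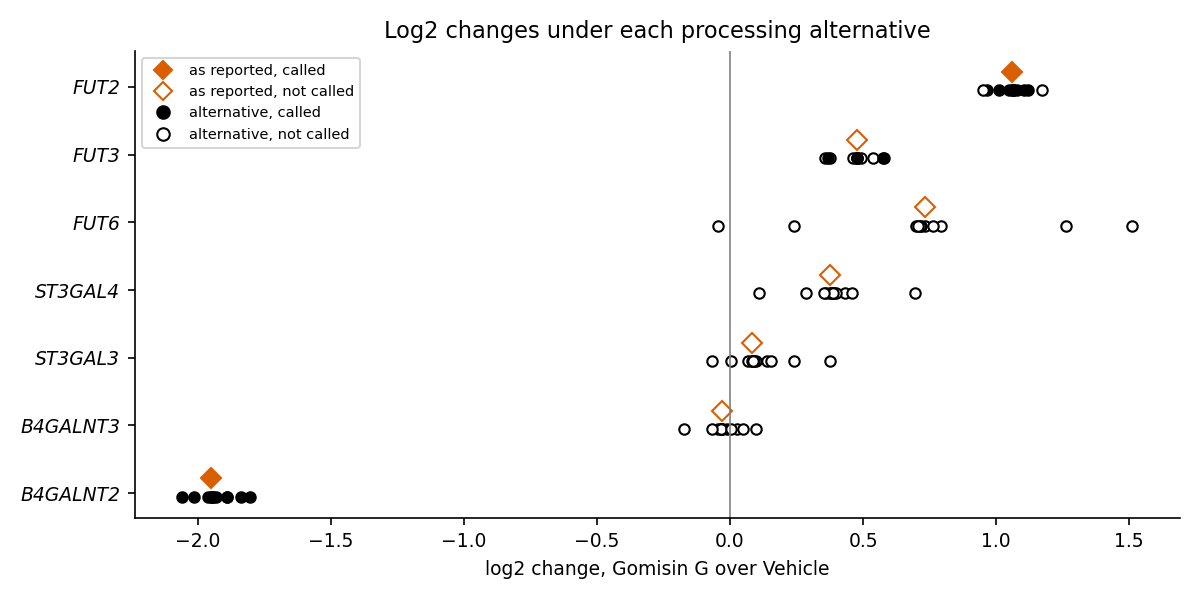
Log2 change (gomisin G over vehicle) of the 7 tested genes as reported (orange diamonds) and under each alternative (circles), filled where called. B4GALNT2 stays between -2.06 and -1.80 and FUT2 between 0.95 and 1.17, whereas FUT6 spans -0.04 to 1.51.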

How the data were processed

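RNA-seq was done on 4 SW1990 libraries, 2 with gomisin G and 2 with vehicle. The authors deposited raw counts per gene without normalization. Per the submitters' processing notes, fastp, HISAT2, featureCounts and hg38 were used, and versions, strand setting and treatment of multiply matching reads are not given in the sources used here. Per the labels' protocols a service laboratory removed ribosomal RNA. The whole-series and sample tables differed in 0 counts. All 58735 identifiers, coordinates and merged exon lengths equal GENCODE release 29 (GRCh38), which also gave the transcripts, while RefSeq (GRCh38.p14) gave the upstream stretches. Replicates differed beyond sampling noise (chi-square per gene 37.2 for gomisin G and 6.98 for vehicle), so all 4 libraries were used.

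Counts were fitted in edgeR 4.0.16 under R 4.3.3 (default filter by group, TMM factors, robust quasi-likelihood F test, treatment alone, 2 residual degrees of freedom), tested first on simulated data. SE is the log2 change divided by the root of F. Alternatives were RLE or upper-quartile factors, no filter or at least 50 counts in 2 samples, DESeq2 1.42.0, limma 3.58.1 voom, a replicate block, removal of the length trend (loess on log2 length) and each library left out. Named genes were the 10 members, the called and the 3 lowest-p genes of each further list, the 3 nearest profiles to the lowest-p member in each direction, and genes with exons overlapping a member. The members and lists were chosen with earlier results of these data known.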

Additional observations from a re-analysis of the deposited data

How the results depend on the processing

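By edgeR 145 genes were called higher and 142 lower, 2 of the set and 2 of the wider lists. DESeq2 called 451 and 432, the length trend removed gave 393 and 419, and the replicate block 1408 and 1477. RLE factors gave 131 and 125, no filter 134 and 140, and limma voom 120 and 129. With at least 50 counts in 2 samples 174 were called higher and 146 lower. The wider lists had 1 call with RLE factors, with no filter and with at least 50 counts in 2 samples, 5 with DESeq2, 0 with limma voom, 4 with the length trend removed and 14 with the replicate block. Under the replicate block 3 of the set were called, FUT3 the third, with 1 residual degree of freedom fewer. The replicate 1 deviations of both groups correlated at 0.21 over tested genes, but the labels only share numbers. With libraries left out, calls ran from 69 to 3025 higher, 66 to 3297 lower, 1 to 3 in the set and 0 to 28 in the wider lists, the low ends without a vehicle library and the high ends without gomisin G replicate 2; the cause of the other shifts was not tested. The lone library is then assumed to vary like the other group. B3GALT5, ST3GAL6 and ST6GAL1, with 5 to 18 counts over both groups, showed no difference detectable at this depth. B4GALNT2, FUT2, FUT3 and the 24 pathway genes refitted under the alternatives kept their sign in each that tested them. The 24 were the called and the 3 lowest-p genes of their lists in the reported fit, and the alternatives reuse the same libraries. Their kept signs therefore add no separate support. B4GALNT3, FUT6 and ST3GAL3 did not keep their sign in every alternative.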

Other observations

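Some genes around FUT2 on chromosome 19 were also called higher with gomisin G. Of 14 tested genes within 100 kilobases of FUT2, 13 were positive on the log2 scale (median 0.45), and 3 were called higher, CA11, FAM83E and SULT2B1, named after their values were seen. Among all tested genes 50.7% were positive and 0.922% were called higher. CA11, a carbonic anhydrase-related protein gene, had 31.6 and 21.4 CPM with gomisin G, against 8.07 and 7.67 CPM with vehicle (log2 change 1.75, SE 0.24, adjusted p = 0.0223 by edgeR). FAM83E had 25.8 and 33.3 CPM with gomisin G, against 13.0 and 10.5 CPM with vehicle (log2 change 1.33, adjusted p = 0.0297 by edgeR). SULT2B1, a steroid sulfotransferase gene, had 24.5 and 14.6 CPM with gomisin G, against 5.73 and 6.39 CPM with vehicle (log2 change 1.68, adjusted p = 0.0339 by edgeR). Within the same distance of FUT3, 8 of 10 tested genes were positive (median 0.54), and the lowest adjusted p was 0.0611 by edgeR, that of CAPS. Among the 8 were FUT6 (log2 change 0.73) and AC024592.2 (0.48), whose reads may not be fully separable from those of FUT3. The 1 tested gene within that distance of B4GALNT2, PHOSPHO1, had a log2 change of 1.08 (adjusted p = 0.210 by edgeR). Whether any of these neighbours and the members beside them share a cause was not tested.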
